A study of Mus musculus with 49 samples.

Results

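The genes of the integrated stress response and the unfolded protein response were followed in hippocampus that lacked endophilin A proteins. The set held 36 of the 38355 genes of the count table and was chosen by gene name. It had 13 genes of the ATF4 branch, 4 stress sensors and 19 genes of the endoplasmic reticulum branch. The authors' deposited tables list 35 of them by name, and Trib3 was matched in the count table by its Ensembl identifier. Endophilin A1, A2 and A3, encoded by Sh3gl2, Sh3gl1 and Sh3gl3, are proteins that bend membranes during endocytosis. Polyadenylated RNA of hippocampus, the brain structure needed for forming memories, was sequenced in 49 mouse libraries. At postnatal day 13 to 21 these were A1A2 double knockouts (DKO, n = 7), littermate controls (KOWT, n = 7) and wild types of their own (WT-DKO, n = 10). At postnatal day 0 they were A1A2A3 triple knockouts (TKO, n = 9), littermate controls (KOWTKO, n = 8) and again wild types (WT-TKO, n = 8). The labels spell out no genotype behind KOWT and KOWTKO. No treatment was given, and the growth label of all samples says newborn, against the age label of the 3 older groups, which was used here. The labels do not tie each library to its own mouse, and the p-values therefore reflect variation among libraries, part of which may be technical.

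Cells meet misfolded protein in the endoplasmic reticulum with sensors in its membrane. PERK (Eif2ak3) slows protein synthesis by phosphorylating the initiation factor eIF2, IRE1 (Ern1) splices the messenger RNA of the transcription factor XBP1, and ATF6 is cut to release a transcription factor. XBP1 and ATF6 raise chaperones, folding enzymes and the machinery that removes misfolded proteins. Phosphorylated eIF2, which GCN2 (Eif2ak4) also produces when amino acids run short, favours translation of ATF4, a transcription factor for amino acid synthesis and transport genes, so the level of Atf4 RNA is not a measure of the amount of the protein.

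The promoters of many of these genes carry short motifs that XBP1, ATF6 or ATF4 bind. Windows from 250 bases before to 50 after the RefSeq start were available for 33 of the 36 genes (all but Atf6, Manf and Hyou1). The windows of 1 chromosome, which holds no gene of the 36, were left out of the search and of the shares below. The endoplasmic reticulum stress element, searched on both strands as CCAAT and CCACG with 9 bases between them, was found in 8 of 17 windows of the endoplasmic reticulum branch (47.1%), in 0 of 13 of the ATF4 branch and in 0.137% of 27025 gene windows. The related element, ATTGG and CCACG with 1 base between them, was found in Dnajb11 and Herpud1, 2 of 17 (11.8%), against 0.0444% of all windows, and the XBP1 element, TGACG followed directly by TGG, in 0 of 17, against 0.714%. The C/EBP-ATF element, searched as TGATG, any base and AA, was found in 4 of 13 windows of the ATF4 branch (30.8%), in 1 of 17 of the endoplasmic reticulum branch (Herpud1, which holds both kinds) and in 4.5% of all windows. A match is a description of the letters and not of binding. The sequences below are stretches before the RefSeq starts (build GRCm38.p6, 5′ to 3′ on the strand of the gene), with the matched letters in capitals, and those of Hspa5, Asns and Atf3, which lie inside the GENCODE genes, are held to 30 bases. They are shown because Hspa5, Hsp90b1, Calr and Creld2 fell in both mutants, Canx and Pdia6 were called in DKO and not in TKO, while Dnajc3 and Herpud1 carry such elements and were not called in either comparison with KOWT or KOWTKO. Asns, Chac1 and Atf3 carry the C/EBP-ATF element. Asns rose in TKO, Chac1 was high in TKO 2 and 3 only among the TKO libraries and was not called, and Atf3 had the lowest log2 fold change of the members in DKO versus KOWT.
Hspa5 (chr2:34772019-34772048, plus strand): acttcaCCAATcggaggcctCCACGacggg
Hsp90b1 (chr10:86705523-86705666, minus strand): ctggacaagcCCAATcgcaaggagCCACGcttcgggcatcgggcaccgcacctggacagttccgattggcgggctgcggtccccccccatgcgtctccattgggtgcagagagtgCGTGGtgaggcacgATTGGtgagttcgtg
Calr (chr8:84847042-84847121, minus strand): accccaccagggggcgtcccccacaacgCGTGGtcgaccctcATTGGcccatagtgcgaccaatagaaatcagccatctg
Creld2 (chr15:88819486-88819565, plus strand): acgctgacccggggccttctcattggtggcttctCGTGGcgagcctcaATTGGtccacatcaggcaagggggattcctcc
Canx (chr11:50325764-50325843, minus strand): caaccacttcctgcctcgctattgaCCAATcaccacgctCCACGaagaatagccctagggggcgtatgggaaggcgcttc
Pdia6 (chr12:17266459-17266538, plus strand): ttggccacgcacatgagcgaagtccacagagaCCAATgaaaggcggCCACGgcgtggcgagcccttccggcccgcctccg
Dnajc3 (chr14:118937797-118937876, plus strand): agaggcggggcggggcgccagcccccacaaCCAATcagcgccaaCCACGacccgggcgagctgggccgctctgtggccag
Herpud1 (chr8:94386299-94386408, plus strand): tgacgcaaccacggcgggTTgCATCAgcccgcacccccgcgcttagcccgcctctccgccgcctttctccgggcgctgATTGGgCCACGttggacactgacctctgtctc
Asns (chr6:7693213-7693242, minus strand): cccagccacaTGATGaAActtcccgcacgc
Chac1 (chr2:119351022-119351101, plus strand): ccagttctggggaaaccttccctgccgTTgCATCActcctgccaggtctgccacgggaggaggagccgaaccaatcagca
Atf3 (chr1:191183425-191183454, minus strand): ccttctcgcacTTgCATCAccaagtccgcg

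Libraries held 13116766 to 56977730 reads on genes. The targeted genes were examined first. Levels are given as counts scaled to 1000000 reads on genes (CPM), as mean ± SD over libraries or as lowest, median and highest library. Sh3gl1 was at 0.791 ± 0.287 CPM in DKO libraries, against 59.4 ± 4.94 in those of KOWT. In TKO libraries it was at 0.831 ± 0.2898 CPM, against 67.3 ± 14.8 in those of KOWTKO. Sh3gl2 was low in DKO (37.7 to 43.3 CPM) and also in KOWT (38.0 to 41.6), against 390.0 to 464 in WT-DKO, and the KOWTKO libraries were low in Sh3gl2 and Sh3gl3, as TKO were. DKO and KOWT thus differed in Sh3gl1 on a shared loss of Sh3gl2, and TKO and KOWTKO on a shared loss of Sh3gl2 and Sh3gl3. Sh3gl3 was low in DKO 5 and 6 and in KOWT 4, 5 and 6, and Sh3gl1 stood at 33.7 CPM in the library labelled KOWTKO 3. All 8 hippocampal excitatory neuron markers were detected in every group, with summed levels of 5996 to 9082 CPM in DKO and 6961 to 9322 in KOWT, and of 1772 to 1947 in TKO and 1726 to 2110 in KOWTKO. These are bulk samples, in which fewer cells of a type and less RNA per cell cannot be told apart.

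At day 13 to 21 the endoplasmic reticulum branch was lower in DKO than in KOWT. It held 19 genes, of which 12 fell and 1 rose, and the median log2 fold change was -0.25, against 0.00 over all genes tested. A gene was called at a Benjamini-Hochberg adjusted p under 0.05 over all genes in edgeR's quasi-likelihood test. Of the 36 genes 35 passed the filter on low counts (all but Trib3), and 20 of them were called, 3 higher and 17 lower, where 20.8% of 16114 genes tested were called, 10.2% higher and 10.6% lower. Of the 14 chaperones and folding enzymes 10 fell and 0 rose, while of the 4 genes of protein disposal 1 rose and 1 fell. The falls were small, between 1.12-fold (Sel1l) and 1.69-fold (Sdf2l1) over the 12 genes.

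Xbp1 (ENSMUSG00000020484, chromosome 11, 5520659 to 5525893, mm10), whose protein is one of the factors that drive the branch, had 47.4, 59.99 and 73.2 CPM in the lowest, median and highest DKO library, against 70.3, 75.03 and 95.8 CPM in KOWT. Of the 7 DKO libraries 5 lay below every KOWT library, and the log2 fold change (± SE) was -0.39 ± 0.08, adjusted p = 0.00178. Reads of the spliced and unspliced forms of Xbp1 are counted together here.

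Sdf2l1 (ENSMUSG00000022769, chromosome 16, 17130138 to 17132383), a cofactor of the luminal chaperone BiP, had the lowest log2 fold change of the branch. It had 4.35, 5.59 and 8.59 CPM in DKO, against 6.95, 10.01 and 12.7 CPM in KOWT (-0.76 ± 0.14, adjusted p = 0.000401). All DKO libraries but the highest lay below all KOWT libraries. Hspa5 (ENSMUSG00000026864, chromosome 2, 34771970 to 34777547), which encodes BiP itself, had 242, 274 and 346 CPM in DKO, against 291, 346 and 484 CPM in KOWT (-0.40 ± 0.11, adjusted p = 0.0101). The Hspa5 groups overlapped more, since 3 of the 7 DKO libraries reached into the KOWT range, and KOWT 1, 6 and 7 stood above the other KOWT libraries at 415, 484 and 477 CPM. The same 3 libraries were the highest of KOWT for Sdf2l1, Manf and Pdia6.

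Among the glycoprotein chaperones, Calr, the calcium-binding lectin calreticulin (ENSMUSG00000003814, chromosome 8, 84841850 to 84846934), had 266, 341 and 455 CPM in DKO, against 366, 471 and 558 CPM in KOWT (-0.43 ± 0.10, adjusted p = 0.00465). Canx, its membrane-bound relative calnexin, averaged 390.2 ± 40.3 CPM in DKO and 441 ± 39.98 in KOWT (-0.17 ± 0.06, adjusted p = 0.0435), the smallest fall but 1 in the branch. The call of Canx was lost with all libraries kept when no filter was applied, when only these 2 groups were in the fit and with the replicate number as a block (adjusted p = 0.0622, 0.125 and 0.0704). Hsp90b1, the HSP90 of the endoplasmic reticulum (ENSMUSG00000020048, chromosome 10, 86690209 to 86705509), had 250.4, 259 and 333 CPM in DKO, against 309.7, 349 and 432 CPM in KOWT (-0.35 ± 0.08, adjusted p = 0.00331). In each of these 3 genes the groups overlapped. Of the Hsp90b1 exons 415 bases are shared with 1810014B01Rik on the opposite strand, and the library kit does not mark strand.

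Of the disulfide isomerases, Pdia6 (ENSMUSG00000020571, chromosome 12, 17266545 to 17284770) had 86.3, 103 and 124 CPM in DKO, against 119, 148 and 181 CPM in KOWT (-0.52 ± 0.09, adjusted p = 0.000196), and Pdia4 averaged 37.8 ± 6.31 CPM in DKO and 52.1 ± 7.97 in KOWT (-0.46 ± 0.11, adjusted p = 0.0033). In both, 6 of 7 DKO libraries lay below all KOWT libraries. Pdia3, which works with calnexin and calreticulin, averaged 282 ± 27.7 CPM in DKO and 315 ± 32.1 in KOWT and was not called (-0.16 ± 0.06, adjusted p = 0.0835). The secreted or retained stress factors Manf (ENSMUSG00000032575, chromosome 9, 106838312 to 106891979) and Creld2 (ENSMUSG00000023272, chromosome 15, 88819646 to 88826683) fell as well. Manf had 27.8, 33.2 and 37.5 CPM in DKO, against 36.7, 42.96 and 52.1 CPM in KOWT (-0.42 ± 0.08, adjusted p = 0.000836). Creld2 had 8.43, 11.1 and 12.8 CPM in DKO, against 11.4, 13.9 and 17.4 CPM in KOWT (-0.44 ± 0.10, adjusted p = 0.00261). Again 6 of 7 DKO libraries were below all KOWT libraries in each. Hyou1, a large HSP70-like chaperone, averaged 109 ± 15.4 CPM in DKO and 130.03 ± 12.02 in KOWT (-0.25 ± 0.07, adjusted p = 0.0165). The J-domain cochaperones Dnajb9, Dnajb11 and Dnajc3 were not called, with log2 fold changes of -0.08 ± 0.09, -0.15 ± 0.06 and -0.06 ± 0.10.

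Genes that dispose of misfolded protein did not share one direction. Edem1, which marks misfolded glycoproteins for removal, rose, with 30.98, 35.1 and 37.6 CPM in DKO, against 26.2, 30.1 and 33.7 CPM in KOWT (0.24 ± 0.06, adjusted p = 0.00459), and 5 of 7 DKO libraries lay above all KOWT libraries. Sel1l, a subunit of the retrotranslocation complex, fell to 217 ± 14.3 CPM in DKO, against 244 ± 18.5 in KOWT (-0.16 ± 0.05, adjusted p = 0.0159). Its partner Syvn1, a ubiquitin ligase (-0.17 ± 0.08, adjusted p = 0.154), and Herpud1, a membrane protein of the same complex (0.04 ± 0.05, adjusted p = 0.604), were not called.

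**Figure D1:**
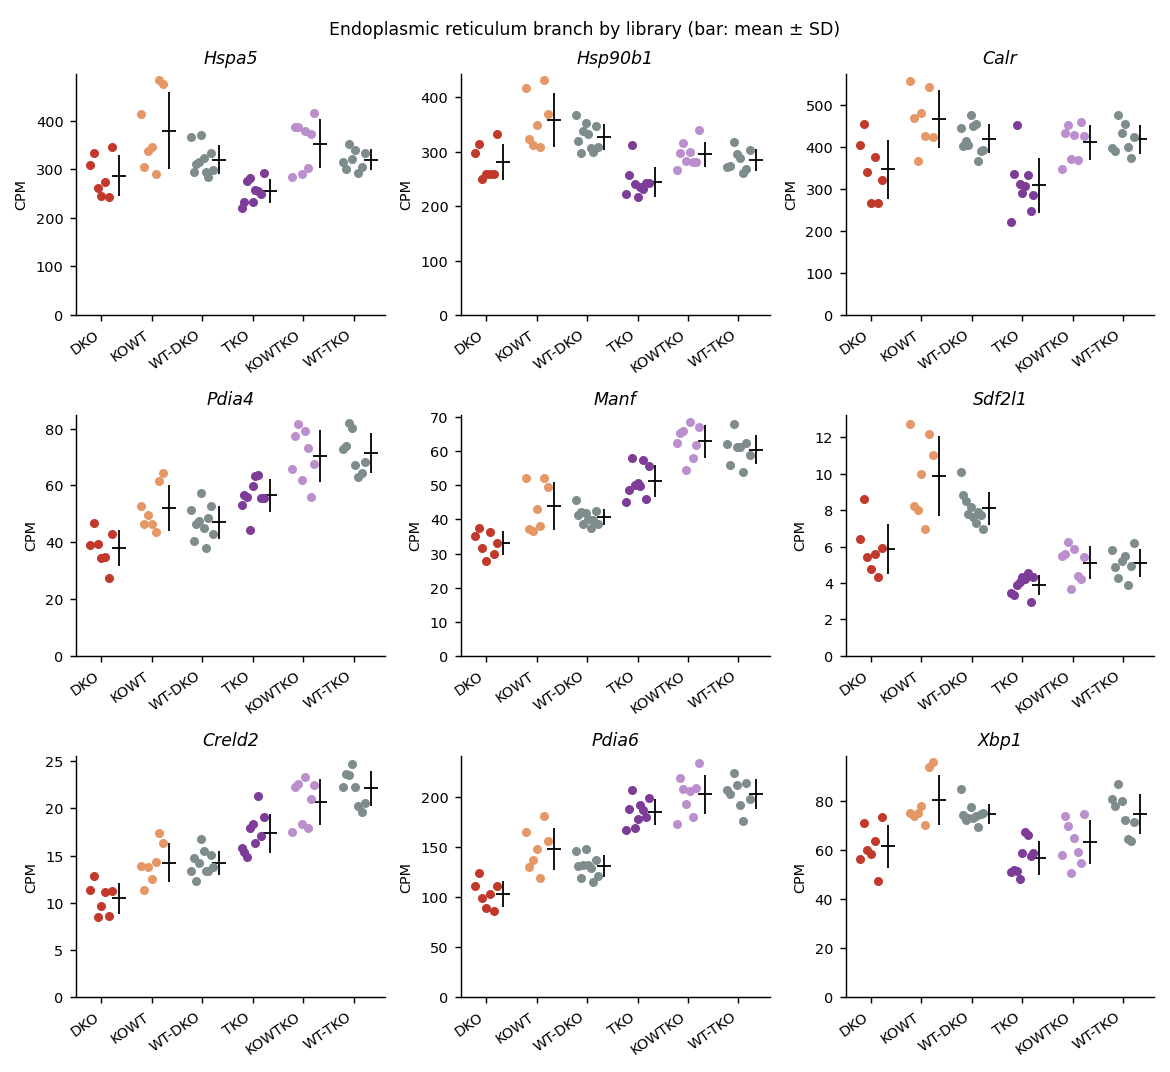
Level of 9 genes of the endoplasmic reticulum branch in every library, in CPM (vertical axis, from 0), for the 6 groups (horizontal axis; older groups left, newborn right), with the mean ± SD beside the points. DKO lie lowest at day 13 to 21 and TKO lowest at day 0 by mean for all 9 genes, with overlap between groups in most.

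Other measured features of the libraries moved with the DKO groups. Of 11 oligodendrocyte and myelin markers 4 fell and 0 rose in DKO versus KOWT, with sums of 4571 to 14572 CPM in DKO, against 11006 to 21341 in KOWT, and lowest in DKO 5 and 6, at 4571 and 6379. No marker of any list was at 0 in these groups. With the mean of these markers in the fit, 9 of the 20 calls were kept (Atf4, Xbp1, Sdf2l1, Hsp90b1, Calr, Pdia6, Creld2, Manf and Edem1) and Hspa5 was not (-0.32, adjusted p = 0.0783), while the branch median was -0.24. Over all genes 2080 were called in that fit, against 3347. All 8 activity-induced neuronal genes fell, with sums of 109 to 291 CPM in DKO, against 232 to 807 in KOWT, and 3 of 7 meningeal markers rose, with sums of 311 to 648 CPM in DKO, against 231 to 361 in KOWT. The part of the activity and meningeal lists in the result was not tested. Of 12 choroid plexus markers 0 were called, though their sums ran from 42.8 to 3766 CPM in DKO and from 30.9 to 3617 in KOWT. With their mean in the fit the branch median was -0.25 and 21 members were called, where 3611 of all genes were, against 3347. Without the libraries above 500 CPM of the choroid plexus gene Ttr the branch median was -0.43. That choice, made after seeing the data, left out DKO 1, 2, 5 and 7 and KOWT 3, 5 and 7. With the Sh3gl3-low libraries left out, 7 of the 20 calls were kept (Atf4, Atf3, Xbp1, Sdf2l1, Pdia4, Pdia6 and Manf), Hspa5 being at -0.36 ± 0.12, adjusted p = 0.0799 and Calr at -0.34 ± 0.13, adjusted p = 0.104. Over all genes 1082 were then called, against 3347.

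At day 0 the branch was lower in TKO than in KOWTKO as well. All 36 genes passed the filter, 9 were called, 1 higher and 8 lower, where 5.09% of 15715 genes tested were called, 2.41% higher and 2.68% lower. The 8 that fell were all chaperones or folding enzymes, 8 of 14, and the 4 disposal genes gave 0 calls. The branch median was -0.17, against 0.00 over all genes. Of the genes that fell, 7 fell in DKO versus KOWT too (Calr, Creld2, Hsp90b1, Hspa5, Manf, Pdia4 and Sdf2l1), 87.5% of the TKO list and 58.3% of the DKO list. Over all genes 10.6% fell in DKO versus KOWT. How many of all genes that fell in TKO fell in DKO too was not counted, so the overlap has no background here. These 2 comparisons share no library.

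Hspa5 had the lowest p of the branch. It had 221, 255 and 292 CPM in TKO, against 285, 377 and 416 CPM in KOWTKO (-0.47 ± 0.07, adjusted p = 0.000458), and 8 of 9 TKO libraries lay below all KOWTKO libraries. Calr had 221, 307 and 454 CPM in TKO, against 348, 428 and 459.8 CPM in KOWTKO (-0.41 ± 0.09, adjusted p = 0.014). Here, too, 8 of 9 TKO libraries lay below all KOWTKO libraries, the exception being TKO 3 at 454 CPM. Hsp90b1 showed the same arrangement, with 216, 240.03 and 312 CPM in TKO, the highest of them TKO 3, against 267, 289.8 and 340.3 CPM in KOWTKO (-0.27 ± 0.06, adjusted p = 0.0123).

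Manf had 45.2, 49.97 and 57.9 CPM in TKO, against 54.4, 63.8 and 68.6 CPM in KOWTKO (-0.30 ± 0.06, adjusted p = 0.00568), with 6 of 9 below all KOWTKO libraries. Pdia4 averaged 56.5 ± 5.79 CPM in TKO and 70.4 ± 9.04 in KOWTKO (-0.32 ± 0.08, adjusted p = 0.0162), and Pdia3 298 ± 27.9 in TKO and 340.4 ± 24.1 in KOWTKO (-0.19 ± 0.06, adjusted p = 0.0413). Creld2 averaged 17.4 ± 2.04 CPM in TKO and 20.7 ± 2.402 in KOWTKO (-0.25 ± 0.08, adjusted p = 0.0468), and Sdf2l1 3.904 ± 0.534 in TKO and 5.12 ± 0.906 in KOWTKO (-0.40 ± 0.12, adjusted p = 0.0417). The calls of Sdf2l1, Creld2 and Pdia3 were lost without KOWTKO 3, at log2 fold changes of -0.35, -0.23 and -0.19 (adjusted p = 0.0961, 0.0979 and 0.0703). They were also lost with all libraries kept when no filter was applied or when only these 2 groups were in the fit. Xbp1 was not called, at 56.7 ± 6.77 CPM in TKO and 63.2 ± 8.997 in KOWTKO (-0.16 ± 0.08, adjusted p = 0.265).

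Of the markers tested between TKO and KOWTKO, 1 of 9 microglial ones rose and 1 of 7 astrocyte ones fell by edgeR's quasi-likelihood test. At an unadjusted p under 0.05 stood 5 of 9 microglial, 4 of 7 astrocyte, 4 of 8 excitatory neuron, 1 of 7 activity, 1 of 11 choroid plexus, 0 of 7 meningeal and 0 of 9 myelin markers. Of all genes 3319 of 15715 did. The median log2 fold change was -0.18 for the astrocyte list (6 of 7 negative), -0.13 for the neuron list (6 of 8 negative) and -0.36 for the meningeal list (7 of 7 negative), beside the -0.17 of the endoplasmic reticulum branch. It was positive for the choroid plexus (0.47, 10 of 11 positive), blood (0.08), proliferation (0.06) and myelin (0.04) lists. With the choroid plexus or the myelin mean in the fit 10 or 9 members were called, with 8 falls in the branch in each. Over all genes 1008 and 980 were then called, against 800. The part of the other lists in the result was not tested.

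**Figure D2:**
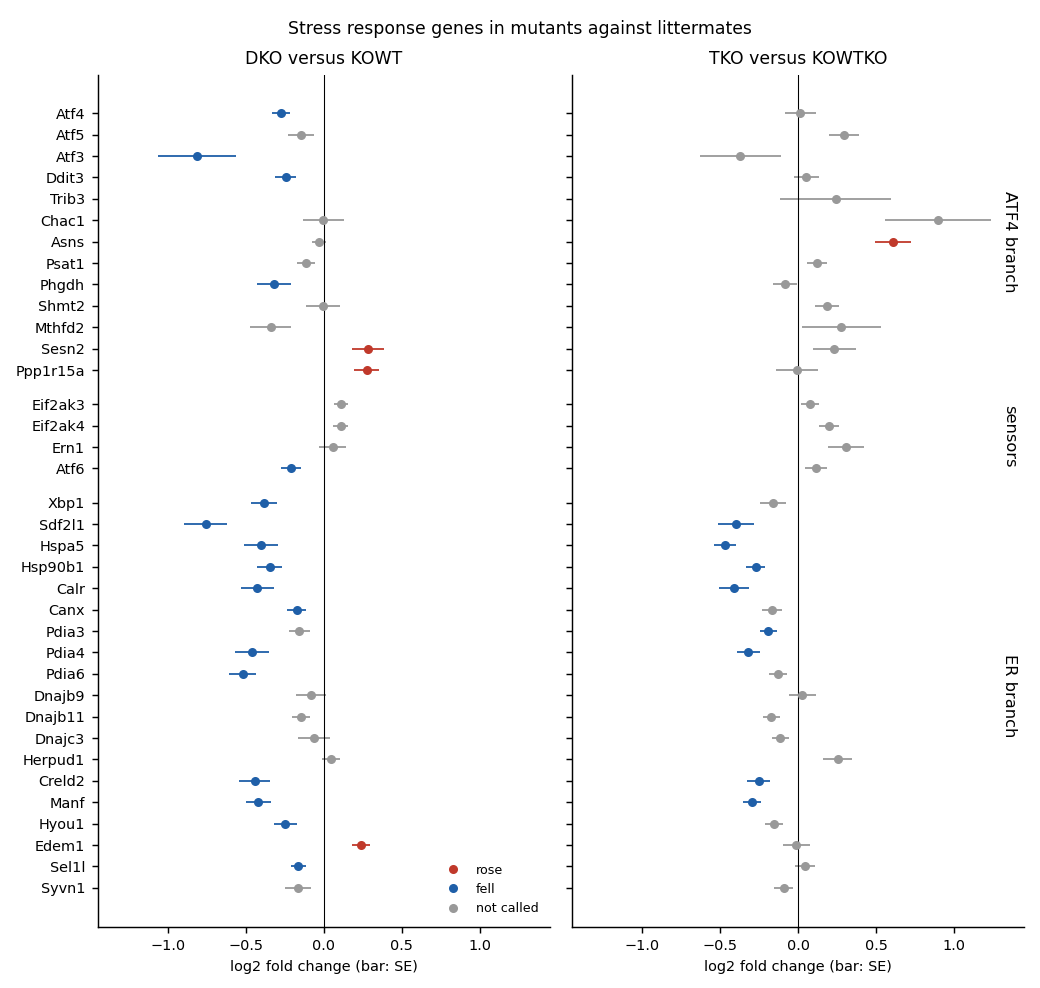
Log2 fold change (horizontal axis, bar: SE) of the 36 genes in DKO versus KOWT (left) and TKO versus KOWTKO (right), grouped from top to bottom into the ATF4 branch, sensors and the endoplasmic reticulum branch; red marks genes called higher, blue genes called lower and grey genes not called. In the endoplasmic reticulum branch 12 of 19 are blue on the left and 8 of 19 on the right, while in the ATF4 branch Asns alone is called on the right. Trib3 has no value on the left because it did not pass the filter there.

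Promoters with and without the stress element were set beside these calls. In DKO versus KOWT, 6 of the 10 genes of the branch with either stress element in the window fell and 0 rose, and of the 7 with a window but no match 4 fell and 1 rose. In TKO versus KOWTKO 4 of 10 and 3 of 7 fell. The medians were -0.26 with and -0.16 without a match in DKO versus KOWT, and -0.17 and -0.16 in TKO versus KOWTKO. Canx, Dnajc3 and Pdia6, shown above with intact elements, had log2 fold changes of -0.17 ± 0.06, -0.11 ± 0.06 and -0.13 ± 0.06 in TKO and were not called there. Manf and Hyou1 have no window here.

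Chaperones were also lower than in the wild types, which retain Sh3gl2. In DKO versus WT-DKO 16 of 35 genes were called, 3 higher and 13 lower, where 26.1% of all genes were. The endoplasmic reticulum branch had 10 lower and 1 higher, with a median of -0.15. Pdia6 (-0.34 ± 0.08, adjusted p = 0.00289), Creld2 (-0.44 ± 0.09, adjusted p = 0.00112) and Sdf2l1 (-0.45 ± 0.13, adjusted p = 0.0103) fell, whereas Hspa5 averaged 287 ± 42.2 CPM in DKO and 319 ± 29.9 in WT-DKO and was not called (-0.15 ± 0.10, adjusted p = 0.298). Herpud1 rose (0.16 ± 0.05, adjusted p = 0.023). With the Sh3gl3-low libraries left out, 7 of the 16 calls were kept and the falls in the branch numbered 3 (Pdia6, Creld2 and Manf), with Sdf2l1 at -0.36 (adjusted p = 0.0593) and Herpud1 at 0.15 (adjusted p = 0.0735). Over all genes 2971 were then called, against 4203. This comparison shares the DKO libraries with the one against KOWT. In it 5 of 8 activity genes and 3 of 3 blood genes fell as well, and their part was not tested.

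In TKO versus WT-TKO 13 of 36 were called, 4 higher and 9 lower, where 22.9% of all genes were. Of the branch 9 fell and 1 rose. Calr (-0.44 ± 0.09, adjusted p = 0.00185), Xbp1 (-0.40 ± 0.08, adjusted p = 0.00135), Hspa5 (-0.33 ± 0.07, adjusted p = 0.00218) and Hyou1 (-0.28 ± 0.06, adjusted p = 0.00141) fell. Herpud1 rose to 40.3 ± 6.21 CPM in TKO, against 31.8 ± 4.75 in WT-TKO (0.35 ± 0.09, adjusted p = 0.00815). Of the markers 7 of 7 meningeal, 5 of 7 astrocyte, 5 of 9 microglial, 4 of 11 choroid plexus and 3 of 9 myelin ones fell. With the choroid plexus mean in the fit 17 members were called, with 10 falls in the branch and a branch median of -0.20. With the myelin mean 14 were called, with 9 falls and a median of -0.15. Over all genes 4109 and 3851 were then called, against 3595. The part of the meningeal, astrocyte and microglial lists was not tested.

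Between KOWT and WT-DKO, 0 of 35 genes were called by edgeR's quasi-likelihood test, where 4.41% of all genes were (2.33% higher), with 10 at an unadjusted p under 0.05, as were 2713 of 16114 genes. The endoplasmic reticulum branch lay on the higher side in KOWT, with 18 of 19 log2 fold changes positive and a median of 0.11, and for the chaperones and folding enzymes 14 of 14 and 0.15. DESeq2 called 2, Atf6 and Pdia3, and limma-voom 0, where they called 989 and 711 of all genes. For 0 of 35 genes did all KOWT libraries lie outside the WT-DKO range, where 0.54% of all genes lay wholly lower. Hspa5 was at 379 ± 79.2 CPM in KOWT and 319 ± 29.9 in WT-DKO (0.25 ± 0.10, adjusted p = 0.164) and Sdf2l1 at 9.88 ± 2.22 in KOWT and 8.097 ± 0.888 in WT-DKO (0.30 ± 0.12, adjusted p = 0.187). KOWTKO differed from WT-TKO in 6 of 36 genes, where 20.9% of all genes were called. Xbp1 (-0.24 ± 0.08, adjusted p = 0.0456) and Ern1 (-0.35 ± 0.12, adjusted p = 0.034) fell, and Dnajb11 (0.19 ± 0.05, adjusted p = 0.0169), Dnajc3 (0.22 ± 0.06, adjusted p = 0.00968), Pdia3 (0.17 ± 0.06, adjusted p = 0.0372) and Ppp1r15a (0.44 ± 0.14, adjusted p = 0.0304) rose, with all 8 KOWTKO libraries above all WT-TKO libraries for Dnajb11, where 1.49% of all genes lay wholly higher and 0.904% wholly lower. The call of Xbp1 was lost with no filter, with only the 2 groups, with the replicate block and with the myelin covariate (adjusted p = 0.057, 0.0535, 0.0654 and 0.0531), those of Ern1 and Pdia3 without KOWTKO 3 (0.0567 and 0.0518), that of Pdia3 also with no filter (0.0613), and that of Ppp1r15a with the replicate block (0.0557). Of the markers 8 of 11 choroid plexus, 7 of 9 microglial, 5 of 9 myelin and 2 of 7 astrocyte ones fell there. With the choroid plexus mean in the fit 6 members were called, and with the myelin mean 5. Over all genes 3594 and 3624 were then called, against 3288. The part of the microglial and astrocyte lists was not tested.

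The ATF4 branch was mixed in DKO versus KOWT. Of 12 genes tested 4 fell and 2 rose, with a median log2 fold change of -0.13. Atf4 (ENSMUSG00000042406, chromosome 15, 80255184 to 80257541) had 67.5, 79.4 and 82.9 CPM in DKO, against 84.8, 90.5 and 103 CPM in KOWT and 90.8, 103 and 109 CPM in WT-DKO. All 7 DKO libraries lay below all KOWT and all WT-DKO libraries, and Atf4 was the single member whose DKO and KOWT groups did not overlap, where 1.92% of all genes lay wholly lower and 1.46% wholly higher. The log2 fold change of Atf4 was -0.28 ± 0.06, adjusted p = 0.00191 against KOWT and -0.41 ± 0.06, adjusted p = 9.4e-06 against WT-DKO, where 1.62% of all genes lay wholly lower.

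Further transcription factors of the branch were low in level. Atf3, a stress-induced repressor, had 0.349, 0.654 and 0.799 CPM in DKO, against 0.458, 1.13 and 1.95 CPM in KOWT (-0.81 ± 0.25, adjusted p = 0.0213). The groups overlapped, and the call was lost with limma-voom (-0.68, adjusted p = 0.0572). In edgeR it was lost with only the 2 groups in the fit (adjusted p = 0.0592) and with the myelin covariate (0.185). Ddit3 (ENSMUSG00000025408, chromosome 10, 127290774 to 127296288), which encodes the death-promoting factor CHOP, had 12.1, 16.2 and 16.8 CPM in DKO, against 16.2, 18.1 and 20.7 CPM in KOWT (-0.25 ± 0.07, adjusted p = 0.0132), and shares 68 exon bases with Mars on the other strand. Atf5 averaged 12.3 ± 1.901 CPM in DKO and 13.6 ± 1.43 in KOWT (-0.15 ± 0.08, adjusted p = 0.229). Trib3, a pseudokinase induced by CHOP, had 2 to 17 reads in each of the 49 libraries and was not tested at this age.

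Of 5 genes of serine, asparagine and one-carbon synthesis 1 was called. Phgdh, the first enzyme of serine synthesis, fell to 13.1 ± 2.27 CPM in DKO, against 16.5 ± 2.09 in KOWT (-0.32 ± 0.11, adjusted p = 0.0362). Asns, asparagine synthetase, averaged 90.6 ± 6.76 CPM in DKO and 92.6 ± 5.86 in KOWT (-0.03 ± 0.05, adjusted p = 0.679), and Psat1 (-0.11 ± 0.06, adjusted p = 0.171) and the mitochondrial folate enzymes Shmt2 (-0.01 ± 0.11, adjusted p = 0.975) and Mthfd2 (-0.34 ± 0.13, adjusted p = 0.0666) were not called either. The genes that rose were Sesn2, a sestrin that restrains the mTORC1 kinase, with 14.7, 25.2 and 28.4 CPM in DKO, against 16.1, 18.97 and 23.1 CPM in KOWT (0.28 ± 0.10, adjusted p = 0.0491), and Ppp1r15a, which returns eIF2 to its unphosphorylated form, with 15.7, 17.3 and 20.1 CPM in DKO, against 12.7, 14.7 and 18.5 CPM in KOWT (0.27 ± 0.08, adjusted p = 0.0169). For both genes the groups overlapped, and the calls of Sesn2, Ppp1r15a, Phgdh and Ddit3 were lost when the Sh3gl3-low libraries were left out. All 4 were also lost with the myelin covariate. The call of Sesn2 was lost with limma-voom too (adjusted p = 0.0547). In edgeR it was lost with no filter, with only the 2 groups and with the replicate block (0.0828, 0.123 and 0.0716). Those of Phgdh and Ddit3 were lost with only the 2 groups (0.0574 and 0.0584). Against WT-DKO, Atf4, Atf5 (-0.30 ± 0.08, adjusted p = 0.00526) and Asns (-0.12 ± 0.04, adjusted p = 0.0377) fell and Ppp1r15a rose (0.24 ± 0.07, adjusted p = 0.0168). In edgeR this call of Asns was lost with no filter (adjusted p = 0.0529) and with the choroid plexus covariate (0.0871). That of Ppp1r15a was lost with the replicate block (0.0637) and without the Sh3gl3-low libraries (0.0709). Chac1, which degrades glutathione, averaged 4.98 ± 0.497 CPM in DKO and 4.997 ± 0.966 in KOWT and was not called.

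At day 0 Asns was the 1 gene of the 13 in the ATF4 branch that edgeR's quasi-likelihood test called in TKO versus KOWTKO, while DESeq2 called Atf5 as well, and Eif2ak4 and Dnajb11 outside the branch. Over all genes DESeq2 called 1270, against 800. Asns (ENSMUSG00000029752, chromosome 6, 7675169 to 7693254) had 51.5, 75.3 and 109.8 CPM in TKO, against 49.5, 52.3 and 56.4 CPM in KOWTKO and 47.1, 52.2 and 75.8 CPM in WT-TKO. Of the 9 TKO libraries 8 lay above all KOWTKO libraries (0.61 ± 0.12, adjusted p = 0.0045), and Asns also rose against WT-TKO (0.51 ± 0.12, adjusted p = 0.00274). Atf4 itself was at 135 ± 29 CPM in TKO and 133 ± 15.5 in KOWTKO (0.01 ± 0.10, adjusted p = 0.958). Atf5, with 6 of 9 TKO libraries above all KOWTKO libraries, was not called (0.29 ± 0.10, adjusted p = 0.0746). Ppp1r15a was not called against KOWTKO (-0.01 ± 0.14, adjusted p = 0.982) and was higher in TKO than in WT-TKO (0.43 ± 0.14, adjusted p = 0.0262). The median of the 13 genes was 0.18, against 0.00 over all genes.

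TKO 2 and 3 stood apart from the other TKO libraries in this branch. Chac1 stood at 11.4 and 10.7 CPM in TKO 2 and 3, against 1.32 to 2.76 in the other 7 TKO, 1.202 to 2.93 in KOWTKO and 2.73 to 3.97 in WT-TKO. Mthfd2 was at 36.6 and 37.9 CPM in TKO 2 and 3, against 9.07 to 12.8 in the other TKO and 11.2 to 15.8 in KOWTKO, and Atf4 at 176 and 186, against 106 to 137 in the other TKO and 112 to 154 in KOWTKO. Sesn2 was at 14.9 and 11.7 CPM, against 6.84 to 8.70 in the other TKO and 6.21 to 8.76 in KOWTKO. For these 4 of the 13 genes TKO 2 and 3 both lay above the other 23 newborn libraries, as they did for 1.61% of 15715 genes, for 11 of 32 other ATF4 targets and for 1 of the 19 genes of the endoplasmic reticulum branch (Herpud1). Asns in these libraries (86.4 and 75.3 CPM) lay within the range of the other TKO libraries. TKO 2 and 3 also had the highest summed proliferation markers of the 25 newborn libraries, 272 and 256 CPM, against 163 to 203 in the other TKO and at most 252 in KOWTKO. Their summed meningeal markers were at 154 and 121 CPM, against 53.8 to 130.2 in the other TKO and 66.3 to 176 in KOWTKO. The part of these markers in the levels of the ATF4 branch was not tested.

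The newborn wild types held such a pair too. For 10 of the 13 genes WT-TKO 7 and 8 both lay above the other 6 WT-TKO libraries, as they did for 16.7% of all genes. Ppp1r15a was at 25.6 and 25.8 CPM there, against 14.2 to 17.0 in the others, and Asns at 70.8 and 75.8, against 47.1 to 53.6. These libraries stood apart in other cell type markers as well. WT-TKO 8 had a myelin marker sum of 995 CPM, where the other newborn libraries had at most 117, and WT-TKO 7 had 1049 CPM of Ttr. With the choroid plexus mean in the fit, the branch median was 0.22 in TKO versus WT-TKO, against 0.08. With the myelin mean it was 0.12. The part of these markers in the levels of WT-TKO 7 and 8 themselves was not tested.

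Without TKO 2 and 3 and WT-TKO 7 and 8, a choice made after seeing these values, Asns still rose in TKO versus KOWTKO (0.60 ± 0.11, adjusted p = 0.00172), whereas Mthfd2 fell (-0.34 ± 0.08, adjusted p = 0.00919), Atf5 rose (0.31 ± 0.09, adjusted p = 0.0261) and Chac1 was at -0.02 ± 0.15, adjusted p = 0.96. The branch median was then 0.01. The falls of Calr (-0.53 ± 0.08, adjusted p = 0.000219), Hsp90b1 (-0.35 ± 0.05, adjusted p = 0.000285) and Hspa5 (-0.47 ± 0.08, adjusted p = 0.00103) stayed.

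**Figure D3:**
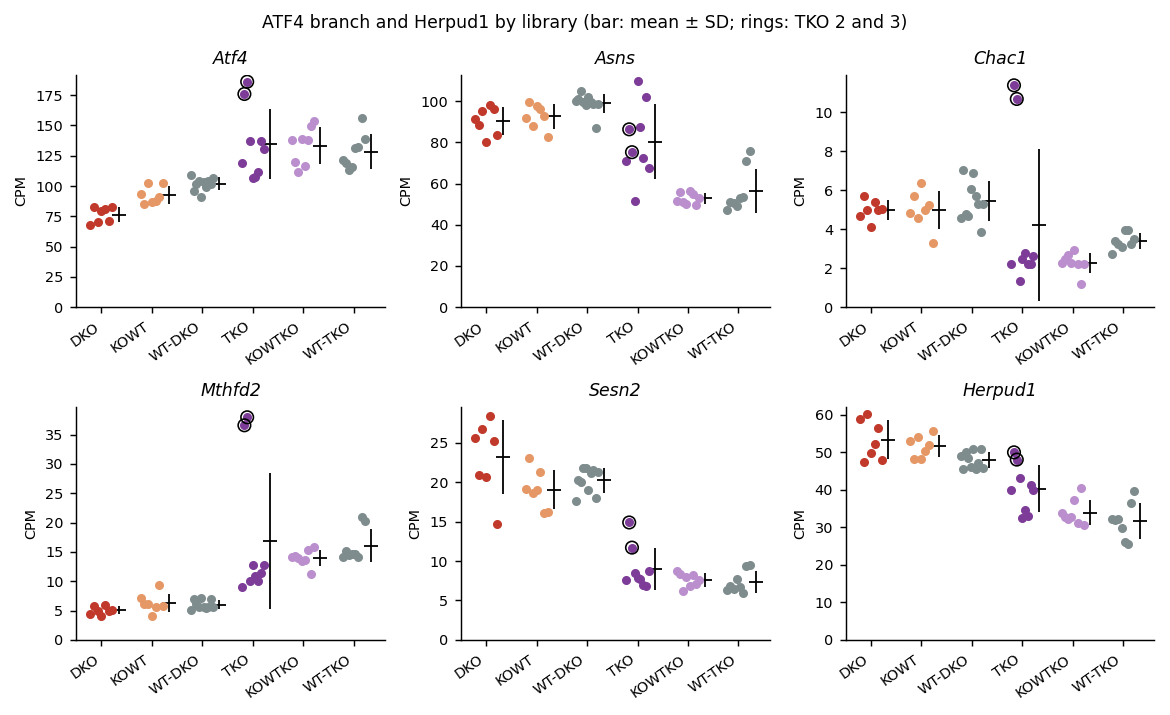
Level of Atf4, Asns, Chac1, Mthfd2, Sesn2 and Herpud1 in every library, in CPM (vertical axis, from 0), for the 6 groups (horizontal axis), with the mean ± SD beside the points and rings around TKO 2 and 3. Atf4 in all 7 DKO libraries lies below all KOWT and WT-DKO libraries, and TKO 2 and 3 stand above the other newborn libraries in Atf4, Chac1, Mthfd2, Sesn2 and Herpud1 but not in Asns.

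Of the sensors, 1 of 4 was called in DKO versus KOWT. Atf6 (ENSMUSG00000026663, chromosome 1, 170704674 to 170867771) had 91.4, 100.4 and 116 CPM in DKO, against 108, 115 and 129.6 CPM in KOWT (-0.21 ± 0.06, adjusted p = 0.018), and 6 of 7 DKO libraries lay below all KOWT libraries. Against WT-DKO (83.5, 107 and 119 CPM) it was not called (-0.03 ± 0.06, adjusted p = 0.722). Eif2ak3 had 35.02, 40.8 and 44.1 CPM in DKO, against 35.4, 37.1 and 40.9 CPM in KOWT (0.11 ± 0.05, adjusted p = 0.103), and 36.3, 40.4 and 47.8 CPM in TKO, against 35.8, 38.2 and 44.2 CPM in KOWTKO (0.08 ± 0.06, adjusted p = 0.48).

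Ern1 had 11.2, 15.4 and 19.9 CPM in DKO libraries, against 13.2, 14.96 and 17.7 CPM in KOWT libraries and 12.2, 13.7 and 15.1 CPM in those of WT-DKO. At day 0 it had 13.1, 19.3 and 20.9 CPM in TKO libraries, against 13.02, 13.2 and 19.4 CPM in KOWTKO libraries and 11.02, 19.2 and 21.8 CPM in those of WT-TKO, and TKO were called different from neither (0.31 ± 0.11, adjusted p = 0.109 against KOWTKO and -0.04 ± 0.11, adjusted p = 0.819 against WT-TKO). Eif2ak4, the sensor of uncharged transfer RNA, was higher than in wild types in both mutants, with 38.99 ± 2.92 CPM in DKO, against 34.5 ± 1.57 in WT-DKO (0.18 ± 0.04, adjusted p = 0.00231), and 46.9 ± 3.91 in TKO, against 39.2 ± 1.93 in WT-TKO (0.26 ± 0.06, adjusted p = 0.00468). All 9 TKO libraries lay above all WT-TKO libraries, where 0.732% of all genes lay wholly higher and 0.993% wholly lower. Against KOWT (0.11 ± 0.05, adjusted p = 0.103) and KOWTKO (0.20 ± 0.06, adjusted p = 0.0645) it was not called.

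Whether the effect of losing Sh3gl1 differed between the ages was tested as the difference of the log2 fold changes, DKO minus KOWT less TKO minus KOWTKO, over all 49 libraries. Of 36 genes 4 differed and all 4 were lower at the older age, where 8.9% of 16805 genes differed, 4.78% lower and 4.12% higher. Asns was at -0.03 ± 0.05 in DKO versus KOWT and 0.61 ± 0.12 in TKO versus KOWTKO, a difference of -0.64 ± 0.13, adjusted p = 0.00145. Atf5 differed by -0.44 ± 0.13, adjusted p = 0.0294, Atf6 by -0.33 ± 0.09, adjusted p = 0.0226 and Pdia6 by -0.39 ± 0.10, adjusted p = 0.012. For Hspa5 (0.07 ± 0.13, adjusted p = 0.81), Calr (-0.02 ± 0.15, adjusted p = 0.958) and Hsp90b1 (-0.08 ± 0.10, adjusted p = 0.689) no difference was called. The newborn comparison also lacks Sh3gl3 on both sides, so age and that loss cannot be told apart, and Asns alone of the 4 was called once KOWTKO 3 and the Sh3gl3-low libraries were left out. The differences of the other 3 were then -0.48 for Atf5, -0.30 for Atf6 and -0.34 for Pdia6.

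Levels in the wild types show the setting of these differences. Per kb of annotated exon, Calr had the highest level of the 36 genes, 146 ± 12.2 CPM per kb in WT-DKO and 146 ± 12.1 in WT-TKO. Canx (89.9 ± 4.45 in WT-DKO), Pdia3 (88.5 ± 4.93), Hsp90b1 (81.1 ± 6.01) and Hspa5 (75.5 ± 7.07) followed, and the means of Canx and Pdia3, and of Hsp90b1 and Hspa5, lay within 1 SD of each other. Atf4 led the ATF4 branch with 43.2 ± 2.29 CPM per kb in WT-DKO and 54.5 ± 6.01 in WT-TKO. Atf3 (0.436 ± 0.105 in WT-DKO) and Trib3 (0.112 ± 0.0403) were lowest.

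Between the wild types of both ages 29 of 36 genes were called, 14 higher and 15 lower at day 13 to 21, where 81.1% of all genes were called, 39.5% higher and 41.5% lower. The direction split within both branches. Higher at day 13 to 21 were Sesn2 (1.47 ± 0.12), Atf6 (1.34 ± 0.06), Dnajb9 (1.15 ± 0.08), Asns (0.81 ± 0.09) and Sdf2l1 (0.67 ± 0.12), each with all 10 WT-DKO libraries above all 8 WT-TKO libraries, as 25.9% of all genes were. Lower were Mthfd2 (-1.42 ± 0.20), Shmt2 (-1.13 ± 0.09), Creld2 (-0.64 ± 0.08), Pdia6 (-0.63 ± 0.07), Pdia4 (-0.60 ± 0.09) and Manf (-0.57 ± 0.07), each with all 10 below, as 27.1% of all genes were. Hspa5 (-0.00 ± 0.09), Calr (0.00 ± 0.10) and Xbp1 (0.00 ± 0.08) were not called. Age and any other difference between these groups cannot be told apart.

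**Figure D4:**
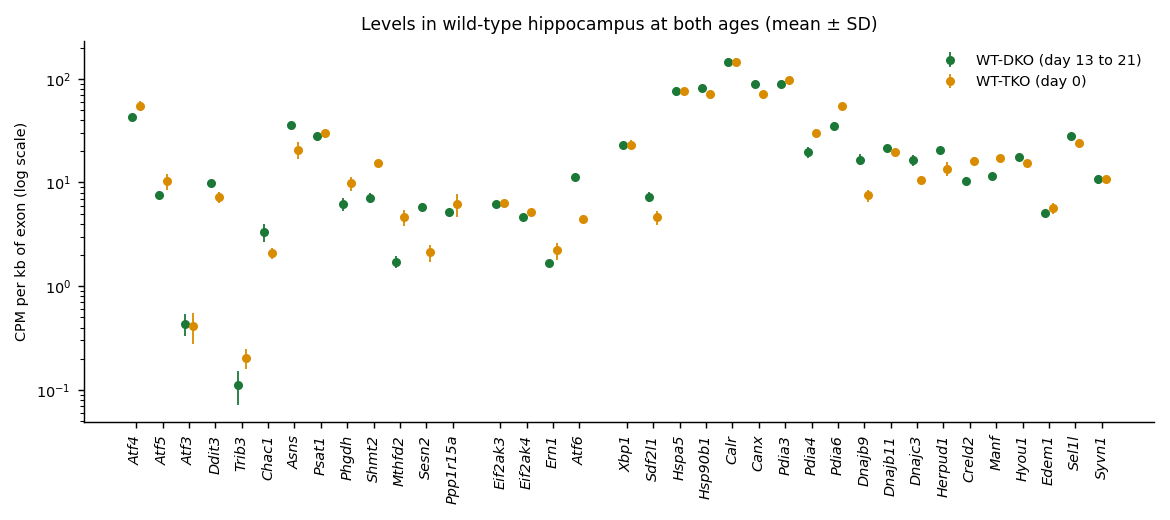
Level of the 36 genes in wild-type hippocampus (vertical axis: CPM per kb of exon, log scale; points: mean, bars: SD), with WT-DKO at day 13 to 21 left of WT-TKO at day 0 for each gene. Calr lies highest and Trib3 lowest at both ages, while Sesn2, Atf6 and Dnajb9 lie higher and Mthfd2 and Shmt2 lower at day 13 to 21.

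Further genes of the pathways were counted from lists of known members. Of 32 other ATF4 targets tested, 6 fell and 2 rose in DKO versus KOWT, where 10.6% of all genes fell and 10.2% rose, led by Stc2 (-0.73 ± 0.12), which encodes a secreted glycoprotein, Iars (-0.28 ± 0.06), the isoleucine transfer RNA ligase, and Cth (-0.54 ± 0.13), which makes cysteine. In TKO versus KOWTKO 5 rose and 0 fell, where 2.41% of all genes rose, led by Bcat1 (0.37 ± 0.09), a branched-chain amino acid aminotransferase, the lipoprotein receptor gene Vldlr (0.26 ± 0.06) and the amino acid transporter gene Slc7a5 (0.35 ± 0.09). The median of the 32 was 0.01 in DKO versus KOWT and 0.14 in TKO versus KOWTKO. Without TKO 2 and 3 and WT-TKO 7 and 8, 7 rose and 3 fell in TKO versus KOWTKO, where 1725 of all genes were called, against 800. With KOWTKO 3 and the Sh3gl3-low libraries left out, 4 fell and 0 rose in DKO versus KOWT, and 3 rose and 0 fell in TKO versus KOWTKO. Over all genes 1082 and 471 were then called in these 2 comparisons.

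Of 14 eIF2 kinases, phosphatase subunits and factors, 1 was called in DKO versus KOWT, Eif2b3, which rose (0.51 ± 0.07), where 20.8% of all genes were called. In TKO versus KOWTKO 0 were called by edgeR's quasi-likelihood test, where 5.09% of all genes were. There 3 stood at an unadjusted p under 0.05, as did 3319 of 15715 genes. Of 54 other genes of folding, translocation and degradation in the endoplasmic reticulum, 9 fell and 7 rose in DKO versus KOWT, where 10.6% of all genes fell and 10.2% rose, with a median of 0.00. The 3 with the lowest p were Fkbp2 (-0.35 ± 0.06), a prolyl isomerase, Wfs1 (-1.08 ± 0.20), a membrane protein of the endoplasmic reticulum, and Nucb2 (0.39 ± 0.08). In TKO versus KOWTKO 1 of the 54 fell, the translocon gene Sec61b (-0.26 ± 0.07), and 0 rose, where 2.68% of all genes fell and 2.41% rose.

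The authors' deposited tables, made with their own settings, list 22 of 35 genes at an adjusted p under 0.05 in DKO versus KOWT, 5 higher and 17 lower, and 11 in TKO versus KOWTKO, 2 higher and 9 lower. In the authors' deposited tables the counts were 21 in DKO versus WT-DKO, 5 higher and 16 lower, and 14 in TKO versus WT-TKO, 5 higher and 9 lower. The share of all genes under that threshold in those tables was not counted, so these counts have no background here.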

How the data were processed

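RNA of 49 mouse hippocampus libraries in 6 groups was analysed. The deposited count table holds the authors' whole reads per gene under Ensembl identifiers. Gene names were taken from the authors' deposited tables first and otherwise from GENCODE M21, and 1579 genes had a name in neither. The submitters' processing notes name CASAVA 1.8.2, STAR 2.3.0e, DESeq2 and the build mm10, and of the read counter the sources used here say nothing. The authors' deposited tables give a normalized mean signal, a log2 fold change and an adjusted p-value per gene, and were used for counts of listed genes only. Per the labels, RNA was extracted with 1 of 2 column kits, without saying which for each library. Reads assigned to no gene, 8.89% to 17.5% of each library, were left out. Depth was 13116766 to 56977730 reads on genes, and no pair of libraries agreed within sampling noise (chi-square per degree of freedom 3.35 to 85.6).

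Counts were scaled by TMM and tested with edgeR 4.0.16 (R 4.3.3, quasi-likelihood, low counts filtered by expression), with all 3 groups of an age in 1 fit, or all 6 for contrasts between ages, and Benjamini-Hochberg adjustment over all genes. DESeq2 1.42.0 and limma 3.58.1 were alternatives. The procedure was tested on simulated data. The 36 genes were all named, with values for those called in DKO versus KOWT or TKO versus KOWTKO and for the main factors and sensors; of each further pathway list the 3 called genes with the smallest p were named. The members and lists were chosen with earlier results of these data known. Levels per kb use GENCODE exon length (GRCm38), and promoters come from RefSeq (GRCm38.p6). The reads do not mark strand, so genes that share exon bases with another gene are uncertain to that extent: Eif2ak3, Hsp90b1, Manf, Ddit3, Syvn1, Atf5, Pdia6, Shmt2 and, by fewer than 20 bases, Pdia3, Pdia4, Dnajb9 and Ppp1r15a.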

Additional observations from a re-analysis of the deposited data

Results flagged for a closer look

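Of 216 groups of values, 14 held a library with a gap to the others above Dixon's critical value, where chance marks about 1 in 20 groups. KOWTKO 7 was the lowest or highest of its group for Chac1 (1.202 CPM), Eif2ak3 (44.2), Eif2ak4 (30.8), Ern1 (19.4) and Sel1l (167). TKO 3 was the highest TKO library for Hsp90b1 (312 CPM) and Calr (454). WT-DKO 9 stood apart for Asns (87.0 CPM) and Shmt2 (16.8), and WT-DKO 1 for Xbp1 (84.9). The other values were Ddit3 in DKO 6 (12.1 CPM), Dnajb11 in DKO 4 (56.6), Ppp1r15a in KOWT 3 (18.5) and Pdia3 in KOWTKO 8 (394).

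The log2 fold change of DKO versus KOWT less that of TKO versus KOWTKO was called for Asns (-0.64), Atf5 (-0.44), Pdia6 (-0.39) and Atf6 (-0.33). The test was edgeR's quasi-likelihood test over all 49 libraries, where 8.9% of 16805 genes differed. Age and the loss of Sh3gl3 in the newborn groups cannot be told apart. Without the Sh3gl3-low libraries and KOWTKO 3 the calls of Atf5, Pdia6 and Atf6 were lost (adjusted p = 0.0899, 0.0926 and 0.163). That of Atf6 was also lost with no filter (0.0571), without TKO 2 and 3 and WT-TKO 7 and 8 (0.0514) and without the libraries over 500 CPM of Ttr (0.101).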

How the results depend on the processing

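Of the called results recomputed under the alternatives 0 reversed their direction. In DKO versus KOWT 20 genes were called. That count was 13 with only these 2 groups in the fit, 7 without the libraries low in Sh3gl3 and KOWTKO 3, and 9 with the myelin marker mean as a covariate. Over all genes tested 2228, 1082 and 2080 were then called, against 3347. In DKO versus WT-DKO the count of members was 7, against 16, without the libraries low in Sh3gl3, and over all genes 2971, against 4203. In KOWT versus WT-DKO the count of members was 2 with DESeq2, 1 with only the 2 groups, 1 with the replicate block and 2 without the libraries over 500 CPM of Ttr, against 0. Over all genes these settings called 989, 973, 535 and 586, against 711. For the difference between ages the count of members was 1, against 4, without the libraries low in Sh3gl3 and KOWTKO 3, and over all genes 303, against 1496. The median log2 fold changes of the ATF4 and endoplasmic reticulum branches without the Ttr-rich libraries were -0.24 and -0.43 in DKO versus KOWT, and -0.22 and -0.31 in DKO versus WT-DKO. Without TKO 2 and 3 and WT-TKO 7 and 8 the endoplasmic reticulum median was -0.21 in TKO versus WT-TKO, and the ATF4 median -0.072 in WT-DKO versus WT-TKO. With the choroid plexus mean as a covariate the ATF4 median was 0.15 in KOWTKO versus WT-TKO, against -0.06. Leaving out the Ttr-rich libraries, or TKO 2 and 3 and WT-TKO 7 and 8, was chosen after seeing the data, as was every alternative for the difference between ages. The cause of these shifts was not tested, beyond the smaller number of libraries where some were left out.

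With the replicate number as a block, 18 members were called in DKO versus KOWT, 14 in DKO versus WT-DKO, 1 in KOWT versus WT-DKO, 7 in TKO versus KOWTKO, 12 in TKO versus WT-TKO and 4 in KOWTKO versus WT-TKO. Over all genes 2955, 3081, 535, 553, 3219 and 2856 were called, in the same order. Same-numbered libraries had correlations of deviations from -0.38 to 0.50, over 0.1 in 3 of 7 pairs in DKO and KOWT and 2 of 8 in TKO and KOWTKO. The best match had the same number for 3 of 7 in DKO versus KOWT and 3 of 8 in KOWTKO versus WT-TKO. It did for 1 of 8 in TKO versus KOWTKO. The count was 0 in DKO versus WT-DKO, KOWT versus WT-DKO and TKO versus WT-TKO. Whether the numbers pair the libraries was not tested. Depth limits Trib3, Atf3 and Chac1, which had few reads.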
